A study of Mus musculus with 32 samples.

Results

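The interaction between dexamethasone and lipopolysaccharide (LPS) was measured in wild-type mouse macrophages: whether the glucocorticoid acted on each gene differently in cells that also received LPS. For every gene it was the dexamethasone effect with LPS (dexamethasone plus LPS against LPS) minus the dexamethasone effect without LPS (dexamethasone against control), both as log2 fold changes. The 16 libraries labelled Acod1 WT were used, out of 32 in the series. They formed 4 groups of 4 libraries: no treatment (control), 100 nM dexamethasone, LPS (100 ng, in a volume the labels do not state), and both agents. Each treatment lasted 24 h, and the labels do not say whether one agent was added before the other. All groups were bone marrow-derived macrophages on a C57BL/6J background, from mice of 8 to 12 weeks, cultured in medium with L929 cell supernatant, which contains the growth factor M-CSF. The other 16 libraries, labelled Acod1 KO, received the same treatments and were used for the estimate of the spread, to choose LPS-responsive genes outside the wild-type libraries, and for 1 comparison between genotypes. Acod1, also called Irg1, encodes the enzyme that makes itaconate. Nothing in the labels says that replicates are separate mice or cultures, and the p-values therefore refer to the spread of these libraries, which may be technical.

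Dexamethasone is a synthetic ligand of the glucocorticoid receptor, a nuclear receptor that raises genes such as Fkbp5 and Tsc22d3 through its DNA sites and lowers many inflammatory genes, in part by acting on the factors NF-kappaB and AP-1. LPS, a component of the outer membrane of Gram-negative bacteria, is sensed by Toll-like receptor 4, which activates NF-kappaB, AP-1 and, through type I interferon, the interferon-stimulated genes. Macrophages activated by LPS stabilise the hypoxia-inducible factor HIF1, turn to glycolysis, make itaconate and stop dividing.

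Macrophage identity genes dominated the marker signal in all 4 groups. The 14 listed macrophage markers were all measured, and their summed level ran from 26166 to 28282 CPM (counts relative to 1 common, TMM-scaled library total) in control, 28184 to 29069 with dexamethasone, 18354 to 20247 with LPS and 31458 to 32383 with both, with the lysozyme gene Lyz2 holding 63.0% of the sum. Of 12 neutrophil markers 5 passed the filter on low counts and summed to between 61.6 and 136 CPM. The protease gene Mmp8 held 49.8% of that sum, while Mpo, Elane, Ly6g, Ngp, Ltf and Prtn3 had at most 1 count per library on average. Of 8 B cell markers 2 passed, and their sum, 97.8% of it from the immunoglobulin gene Ighm, was 99.2 to 107 CPM in control, 52.3 to 54.5 with dexamethasone, 0.114 to 0.661 with LPS and 2.78 to 3.60 with both, while Ms4a1 and Igkc were at 0 in all 16 libraries. Of 12 T and NK cell markers only Cd4 passed, at 2.31 to 3.70 CPM in control and at most 0.669 CPM in the other groups, and Cd3e, Nkg7 and Gzma were at 0 throughout. Of 8 mast cell and basophil markers 2 passed, with Kit at 94.7% of a sum of 14.4 to 17.8 CPM in control and at most 2.63 CPM elsewhere, and Mcpt4, Mcpt8 and Fcer1a were at 0. Dendritic cell markers reached 16.2 to 16.8 CPM with dexamethasone and fibroblast markers, mostly Pdgfrb, 25.04 to 28.6 CPM with both. Libraries held 17559079 to 23095279 counts, all came from sequencing lane 3, and mitochondrially encoded genes took 0.394% to 0.517% of counts in control, 0.510% to 0.568% with dexamethasone, 0.310% to 0.359% with LPS and 0.539% to 0.631% with both; the part of these shifts in the results was not tested. LPS library 3 stood apart from its group. Its counts differed from those of the other LPS libraries by a chi-square of 16.1 to 16.7 per degree of freedom, where the other pairs of wild-type libraries within a group gave 2.01 to 5.57. Without it, 8708 genes were called in place of the 8713 given next, and all 77 genes named here with values kept their call.

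Dexamethasone acted differently on most measured genes once LPS was present. Of 14427 genes tested, 8713 had an interaction at an adjusted p under 0.05 (edgeR quasi-likelihood test, Benjamini-Hochberg), which is 60.4%. The interaction was above 0 for 4617 (32%), meaning a higher response to dexamethasone with LPS than without, and below 0 for 4096 (28.4%). At a difference of 2-fold or more, 1571 genes (10.9%) lay above 0 and 1454 (10.1%) below. The central 50% of interactions spanned -0.48 to 0.52 log2, and the median was 0.03. Among the 10603 genes with a group mean of at least 1 CPM in each wild-type group, 7418 were called, 3999 above and 3419 below. In RNA from whole cultures, fewer cells of a kind and less RNA per cell cannot be told apart.

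The dexamethasone response was larger with LPS and only weakly related to the response without it. Dexamethasone alone raised 3062 genes and lowered 4070, 1391 of them at 2-fold or more, with an SD of 0.801 log2 over all genes. On LPS-treated cells it raised 4997 and lowered 4981, 3204 of them at 2-fold or more, with an SD of 1.32. The responses, which share no library, correlated across the 14427 genes with a Pearson r of 0.234 and a Spearman rho of 0.118, a description across genes that are not independent. LPS effects without and with dexamethasone, which also share no library, correlated at 0.711 and 0.641. Of 5587 genes that dexamethasone changed in both settings, 3105 (55.6%) kept their direction and 2482 reversed it. With the interaction called, 1533 genes (10.6% of those tested) were lowered without LPS and raised with it, and 949 (6.58%) were raised without LPS and lowered with it.

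**Figure D1:**
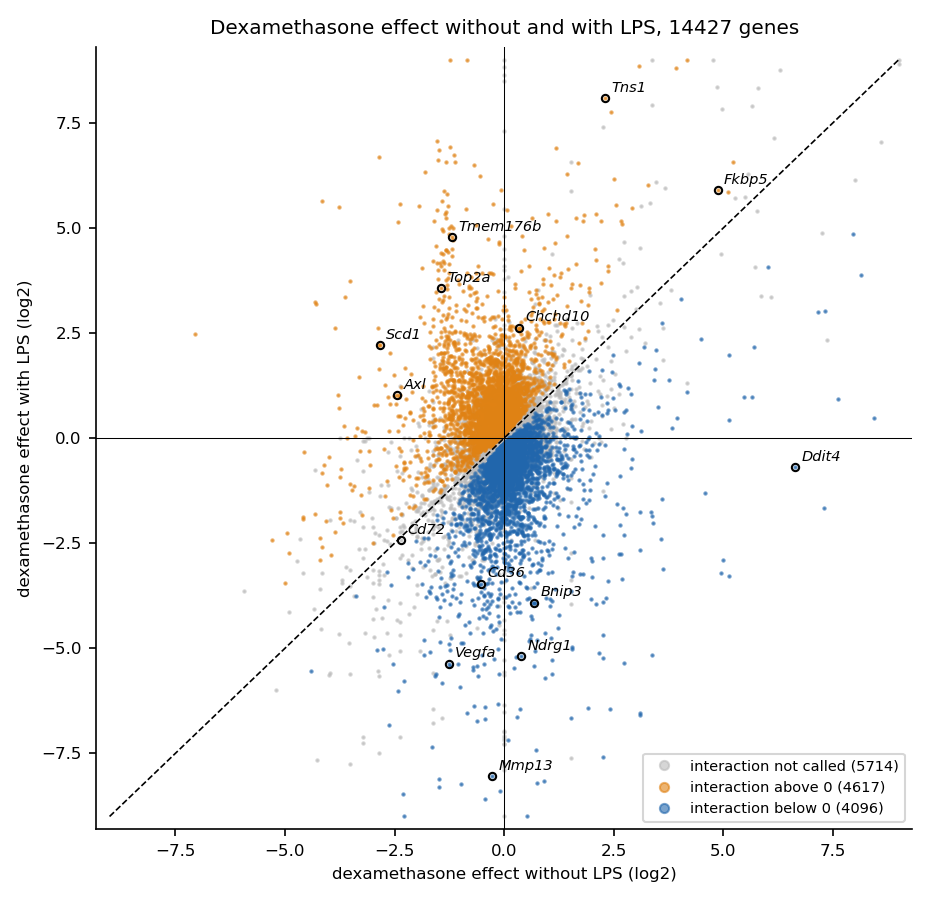
Each point is 1 of 14427 genes, with the log2 effect of dexamethasone without LPS on the horizontal axis and with LPS on the vertical axis, coloured by whether the interaction was above 0 (4617), below 0 (4096) or not called (5714). The dashed line marks equal effects, 11 genes beyond 9 log2 units are drawn at the axis limit, and circles mark named genes, with Cd72 on the line, Tmem176b and Scd1 in the upper left quadrant and Ddit4, Bnip3 and Ndrg1 in the lower right.

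Targets of HIF1, the factor that adapts cells to low oxygen, had the lowest interactions of any list. LPS raised them, and dexamethasone, which alone lowered 1 of them, brought nearly all of them down in LPS-treated cells. They include 5 of the 10 lowest interactions among protein-coding genes with at least 5 CPM in each group. Of 19 listed HIF1 targets outside glycolysis, 17 were tested and 14 of these reached 1 CPM in each group. LPS raised all 17, while over all 14427 tested genes LPS alone raised 5393 and lowered 5530. None of the 17 had an interaction above 0, and 15 had one below 0, with a median of -3.48 log2 against 0.03 over all tested genes. The median dexamethasone effect of the list was 0.27 log2 without LPS and -2.99 with it. Dexamethasone raised 9 of the 17 without LPS and lowered 16 with it, and 9 were called in both opposite directions. These lists were written with earlier results of these data known, so their direction is not independent evidence.

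The promoters of 3 such genes and of Fam162a, which is outside the list and also among the 10 lowest interactions, are shown because they hold the core of the HIF binding motif, ACGTG, close upstream of the transcription start. The stretches are from RefSeq on GRCm38.p6, written along the gene's strand, with the matched letters on either strand in capitals.
Bnip3: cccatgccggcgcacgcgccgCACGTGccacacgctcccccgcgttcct
P4ha2: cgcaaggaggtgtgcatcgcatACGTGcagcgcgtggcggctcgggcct
Fam162a: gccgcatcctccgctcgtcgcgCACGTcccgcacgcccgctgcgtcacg
Egln1: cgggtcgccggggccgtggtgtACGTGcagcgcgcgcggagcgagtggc
They lie at chr7:138909587-138909635, minus strand for Bnip3, at chr11:54100824-54100872, plus strand for P4ha2, at chr16:36071616-36071664, minus strand for Fam162a and at chr8:124949296-124949344, minus strand for Egln1. In Bnip3 the capitals cover a match on each strand, since ACGTG and its reverse complement overlap there. Of the 14 listed HIF1 targets with a RefSeq promoter window (250 bases before to 50 after the start), 11 held ACGTG on either strand, 78.6%, with 1.64 windows per gene. The share was 29% of the 10173 tested genes with a window, at 1.27 windows per gene, and 19.6% of all 32851 windows. Outside the HIF1 and glycolysis lists it ran from 5.26% of efferocytosis, scavenger and complement genes to 66.7% of clock genes. For this motif and for CCAAT the choice was made after the results were seen, and a match is a description of letters, not of binding.

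Ndrg1, a stress-responsive gene that slows growth, had the lowest interaction among protein-coding genes with at least 5 CPM in every group (ENSMUSG00000005125, chromosome 15, 66801167 to 66841489, minus strand, coordinates as in the deposited table). It was at 104, 109.9, 112 and 117 CPM in the control libraries, 146, 139, 147 and 148 CPM with dexamethasone, 278, 234, 265 and 219.8 CPM with LPS and 5.86, 7.06, 8.32 and 6.26 CPM with both. The libraries with both agents lay below every other library, and those with LPS alone above every other. Dexamethasone raised Ndrg1 by 0.39 ± 0.052 log2 without LPS, and with LPS its effect was -5.18 ± 0.073, an interaction of -5.57 ± 0.092, adjusted p = 2.5e-42. Bnip3, which directs damaged mitochondria to autophagy, was at 14.4, 13.9, 12.99 and 13.2 CPM in the control libraries, 20.9, 22.4, 23.3 and 20.7 CPM with dexamethasone, 429.9, 396, 419 and 376 CPM with LPS and 26.8, 27.3, 27.7 and 25.8 CPM with both. Only the LPS libraries were high, and the addition of dexamethasone brought Bnip3 to a level just above that of dexamethasone alone, without overlap (-4.59 ± 0.091, adjusted p = 4e-39). P4ha2, a collagen prolyl hydroxylase, had means of 7.95, 12.998, 159 and 10.4 CPM in control, dexamethasone, LPS and both, with the libraries given both below those with dexamethasone alone (-4.64 ± 0.13). The disulfide oxidase gene Ero1l was at 37.03, 40.8, 1572 and 87.5 CPM in the same order (-4.31 ± 0.080). Fam162a was at 8.26, 8.95, 199 and 15.03 CPM (-3.84 ± 0.14), and for both genes the libraries given both agents stayed above dexamethasone alone. Egln1, the oxygen-sensing hydroxylase that marks HIF for degradation, went from 342 ± 17.3 CPM with LPS to 49.4 ± 1.12 CPM with both, beside 48.8 ± 1.78 CPM in control (-3.25 ± 0.065).

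Dexamethasone lowered the growth factor genes Vegfa and Pdgfb in both settings, by a far larger factor with LPS. Vegfa, the main vascular growth factor, was at 68.5, 70.02, 72.2 and 58.8 CPM in the control libraries, 29.1, 29.9, 29.98 and 23.6 CPM with dexamethasone, 495, 443, 517 and 437 CPM with LPS and 12.1, 12.8, 10.3 and 10.5 CPM with both. The groups did not overlap, and the lowest was the one with both agents, below dexamethasone alone. The dexamethasone effect on Vegfa was -1.26 log2 without LPS and -5.37 with LPS (-4.11 ± 0.10, adjusted p = 3.9e-35). Pdgfb, the B chain of platelet-derived growth factor, had group means of 42.6, 34.2, 131 and 5.76 CPM in control, dexamethasone, LPS and both (-4.18 ± 0.10). Selenbp1, a selenium-binding protein that is outside these lists, was at 24.2, 27.3, 139 and 9.26 CPM in the same order (-4.08 ± 0.13).

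Glycolysis, which HIF1 also drives, moved the same way on a smaller scale. LPS raised all 20 tested members of 21 listed, all at 1 CPM or more in each group. The interaction was below 0 for 16 and above 0 for 2, with a median of -1.38 log2, and dexamethasone lowered 17 in the presence of LPS. Slc2a1, the main glucose transporter, went from 1284 ± 151 CPM with LPS to 142 ± 6.02 CPM with both (-3.34 ± 0.080, adjusted p = 6e-36), while dexamethasone alone moved it from 30.97 ± 1.01 to 34.7 ± 0.953 CPM. Eno2, the neuronal form of enolase, went the other way, from 37.2 ± 2.19 to 52.8 ± 3.20 CPM with LPS and from 18.004 ± 1.88 to 8.73 ± 1.14 without (1.54 ± 0.11). Of the 20 glycolysis genes with a promoter window, 14 held ACGTG, 70%, at 1.5 windows per gene.

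Entry of pyruvate into the TCA cycle showed the opposite sign. Of 33 tested genes of 34 listed, all above 1 CPM, 27 had an interaction above 0 and 4 below, with a median of 0.76 log2. Dexamethasone raised 28 of them with LPS, against 4 without, and 11 went from lowered to raised. Idh3a, a subunit of NAD-dependent isocitrate dehydrogenase, was at 23.8, 23.6, 23.8 and 24.2 CPM in the control libraries, 22.98, 22.7, 19.4 and 24.05 CPM with dexamethasone, 28.6, 25.8, 27.8 and 28.7 CPM with LPS and 117, 111, 117 and 111 CPM with both. The libraries with both agents stood far above the other 12, which lay within a narrow range (2.13 ± 0.080, adjusted p = 4.9e-28). Mdh1, cytosolic malate dehydrogenase, fell with LPS and was highest with both, at 146, 128, 66.3 and 193 CPM in control, dexamethasone, LPS and both (1.72 ± 0.063). Pdk1, a kinase that shuts off pyruvate dehydrogenase and thereby opposes this entry, was among the 4 below 0, at 70.3, 75.7, 217 and 53.8 CPM in that order (-2.12 ± 0.060).

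NRF2 targets, which protect against oxidants, were also mostly below 0. LPS raised 18 of 19 tested (20 listed, 18 at 1 CPM or more in each group), and the interaction was below 0 for 14 and above 0 for 3, with a median of -0.41. The heme oxygenase gene Hmox1 was at 329.9, 339, 328 and 342 CPM in the control libraries, 586, 585, 566 and 571 CPM with dexamethasone, 6101, 5660.0, 6094 and 5382 CPM with LPS and 673, 655, 656 and 672 CPM with both. Dexamethasone alone raised it without overlap, by 0.79 log2, while in LPS-treated cells its effect was -3.13 (-3.92 ± 0.054, adjusted p = 1.5e-45). The peroxiredoxin gene Prdx1 had means of 1228, 890.4, 7844 and 1092 CPM in control, dexamethasone, LPS and both (-2.38 ± 0.054).

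**Figure D2:**
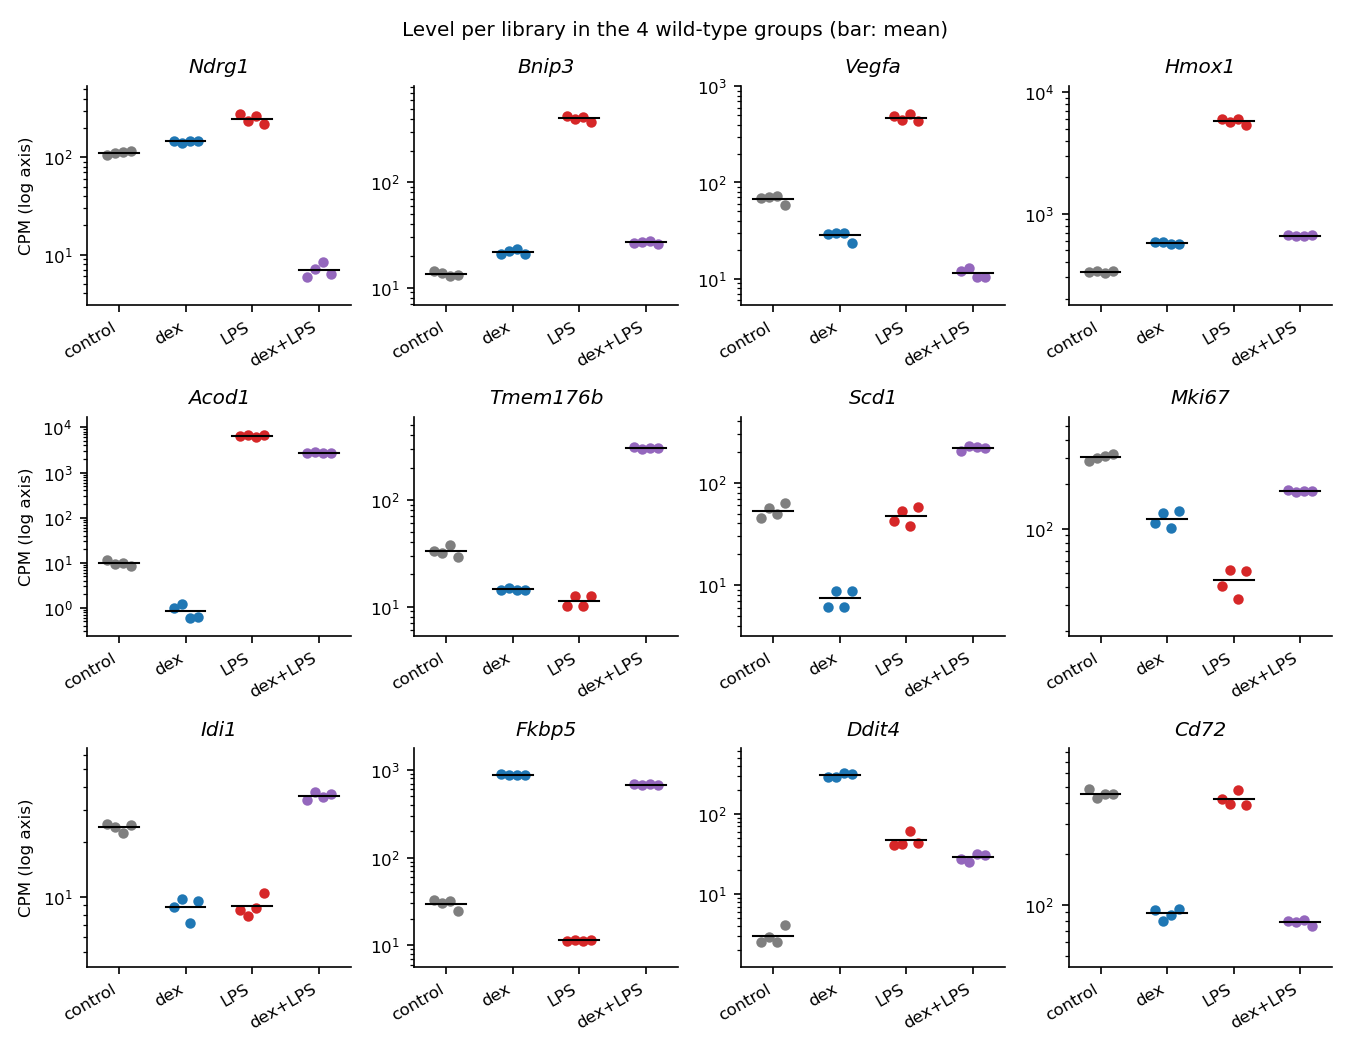
Levels in CPM on log axes of 12 genes, with 1 point per library, 4 libraries in each of the 4 wild-type groups and a bar at the group mean. Ndrg1, Bnip3, Vegfa and Hmox1 are highest with LPS alone and drop when dexamethasone is added, Tmem176b, Scd1 and Idi1 are highest with both agents, Mki67 is lowest with LPS alone, and Cd72 falls to a similar level with dexamethasone in either setting.

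Cell division genes were lowered by dexamethasone in cells without LPS and mostly raised by it in LPS-treated cells. All 34 listed genes were tested, 25 at 1 CPM or more in each group, and all 34 had an interaction above 0, with a median of 3.38 log2. Dexamethasone alone lowered all 34 (median -1.28), LPS alone lowered 33, and dexamethasone with LPS raised 31 relative to LPS (median 2.10). Mki67, which encodes the proliferation antigen Ki-67, was at 290.4, 301, 310.3 and 320.5 CPM in the control libraries, 109, 128, 101 and 131 CPM with dexamethasone, 40.5, 52.6, 33.2 and 51.3 CPM with LPS and 184, 178, 181 and 181 CPM with both. The libraries with both agents lay between control and dexamethasone alone, and all lay above those with LPS (3.41 ± 0.12, adjusted p = 7.6e-30). Top2a, the DNA topoisomerase of dividing cells, had means of 288 ± 12.1 CPM in control, 106 ± 9.83 with dexamethasone alone, 3.79 ± 0.338 with LPS alone and 44.5 ± 2.04 with both (5.00 ± 0.11). Ccnb1, the cyclin of entry into mitosis, had an interaction of 4.85 ± 0.14. The centromere protein gene Cenpf had 0 counts in the 4 LPS libraries and 4.90 ± 0.737 CPM (391 counts) with both, at least 123-fold higher when the LPS group is set to 3 counts over its libraries. Pcna, the sliding clamp of DNA replication, was the weak member, lowered by dexamethasone in both settings (-0.90 and -0.73 log2, interaction 0.18 ± 0.066, adjusted p = 0.0179). Of 28 cell cycle genes with a promoter window 23 held CCAAT, the motif of the factor NF-Y, 82.1% against 42.8% of tested genes. Outside the cell cycle and cholesterol synthesis lists, the share ran from 15.4% of chemokines to 86.7% of clock genes. The clock list had 9 members below 0 and 2 above, so CCAAT was not particular to lists above 0.

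Most cholesterol synthesis genes reversed in the same direction. All 24 tested genes of 25 listed were at 1 CPM or more in each group and had an interaction above 0, with a median of 1.83 log2. Dexamethasone alone lowered all 24 (median -0.79), and with LPS it raised 22 (median 1.07), so that 2 did not reverse. Idi1, the isomerase that supplies isoprenoid units, was at 24.9, 24.2, 22.4 and 24.7 CPM in the control libraries, 8.77, 9.67, 7.16 and 9.46 CPM with dexamethasone, 8.52, 7.84, 8.69 and 10.5 CPM with LPS and 33.96, 37.6, 35.4 and 36.7 CPM with both. Dexamethasone and LPS each brought it to about the same low level, with overlapping libraries, and the libraries given both lay above control (3.46 ± 0.13, adjusted p = 1.2e-28). Fdps, farnesyl diphosphate synthase, had means of 87.7, 28.6, 54.2 and 188 CPM in control, dexamethasone, LPS and both (3.41 ± 0.11). Of 17 such genes with a promoter window 16 held CCAAT, 94.1%.

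The desaturase genes Scd1 and Fads2 also reversed. Scd1, which makes oleate from stearate (ENSMUSG00000037071, chromosome 19, 44382894 to 44396318, minus strand in the deposited table), was at 45.3, 56.6, 49.4 and 62.9 CPM in the control libraries, 6.05, 8.75, 6.06 and 8.70 CPM with dexamethasone, 42.6, 53.4, 37.8 and 57.4 CPM with LPS and 207, 229.7, 224 and 219 CPM with both. Control and LPS overlapped, dexamethasone alone was lowest and both agents highest. Its dexamethasone effect went from -2.84 ± 0.11 log2 without LPS to 2.21 ± 0.084 with LPS (5.04 ± 0.14, adjusted p = 4.2e-33). Fads2, the delta-6 desaturase of polyunsaturated fatty acids, went from -2.51 to 1.00 (3.51 ± 0.12). Phgdh, the first enzyme of serine synthesis, was at 26.9, 11.7, 51.7 and 329 CPM in control, dexamethasone, LPS and both (3.88 ± 0.16).

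The highest interaction among protein-coding genes with at least 5 CPM in each group belonged to Tmem176b, a membrane protein of myeloid cells, and its neighbour Tmem176a also ranked among the 10 highest. Their starts face away from each other, and the stretch between them is shown because it is the promoter sequence they share, at chr6:48841375-48841482, plus strand (RefSeq, GRCm38.p6), with a match to the NF-kappaB motif on either strand in capitals. Such a match was in 12.2% of tested genes with a window.
Tmem176b to Tmem176a: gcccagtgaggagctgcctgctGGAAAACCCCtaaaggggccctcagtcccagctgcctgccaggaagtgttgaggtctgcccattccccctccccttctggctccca
Tmem176b was at 32.9, 32.003, 37.7 and 28.9 CPM in the control libraries, 14.4, 15.03, 14.2 and 14.3 CPM with dexamethasone, 10.02, 12.5, 10.1 and 12.4 CPM with LPS and 313, 301, 309 and 306 CPM with both. All libraries with both agents were far above the rest, and each agent alone lowered the gene. Dexamethasone changed it by -1.18 ± 0.076 log2 without LPS and 4.77 ± 0.071 with LPS (5.95 ± 0.10, adjusted p = 2.4e-41). Tmem176a was at 9.44, 5.23, 13.7 and 209 CPM in control, dexamethasone, LPS and both (4.79 ± 0.12). Spn, the sialoprotein CD43 of leukocytes, fell to 22.9 ± 3.56 CPM with LPS and was at 251 ± 5.22 CPM with both (4.14 ± 0.079). The receptor kinase gene Axl, which serves uptake of dying cells, was lowered by dexamethasone without LPS (-2.44) and raised with it (1.03), an interaction of 3.47 ± 0.079.

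**Figure D3:**
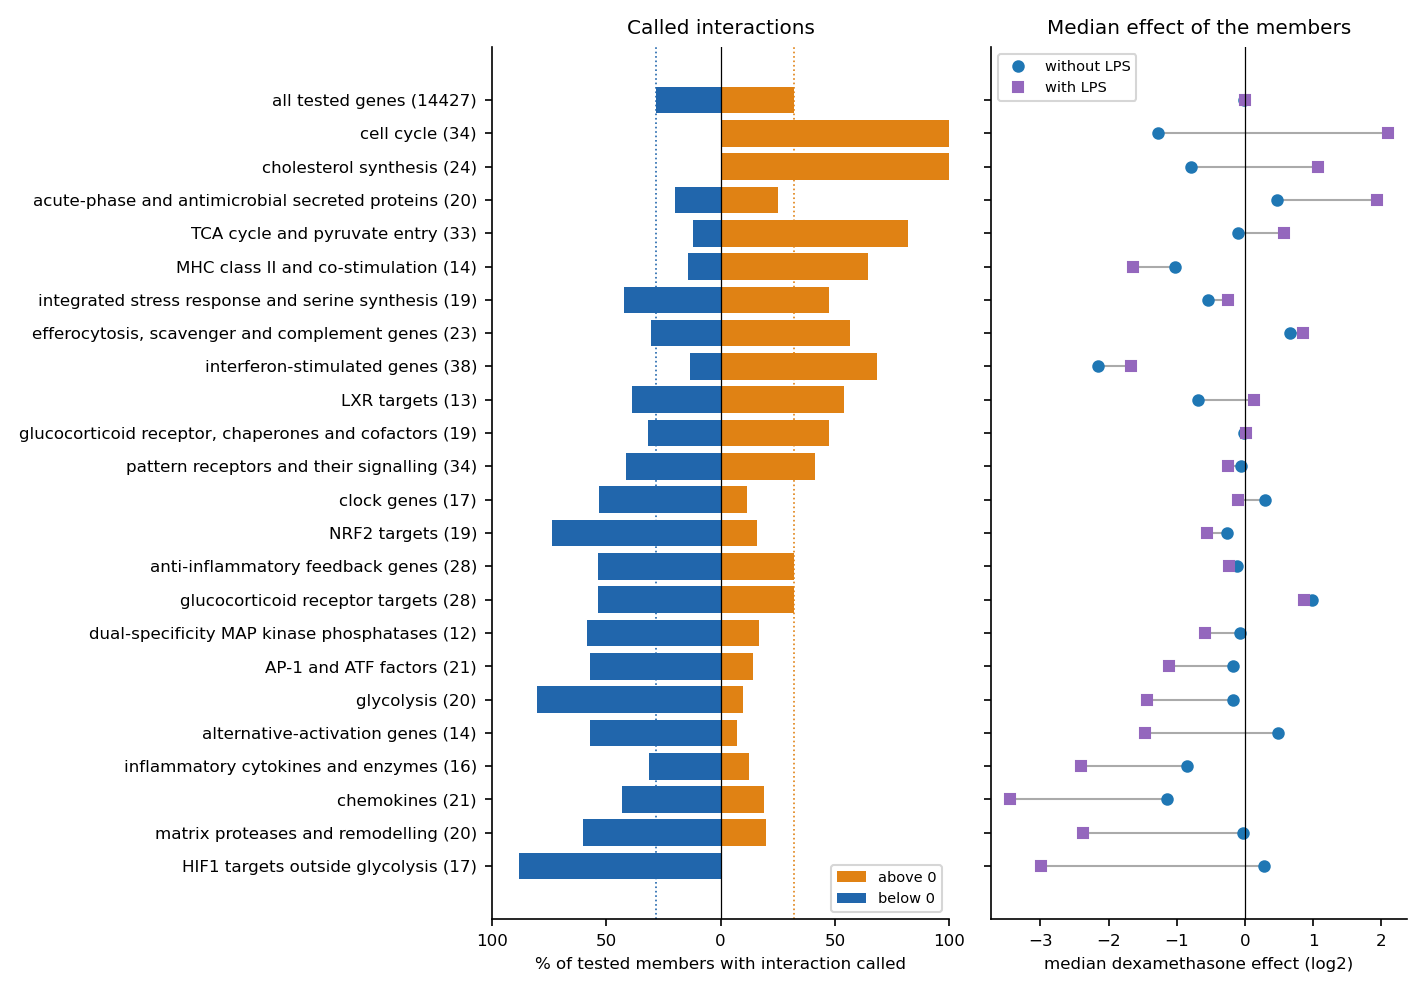
Left, the percentage of tested members of each gene list with an interaction called above 0 (orange, to the right) or below 0 (blue, to the left), with dotted lines at the shares over all 14427 genes (32% and 28.4%) and the number tested in parentheses. Right, the median log2 effect of dexamethasone over the members without LPS (circles) and with LPS (squares), which for cell cycle genes moved from -1.28 to 2.10 and for HIF1 targets from 0.27 to -2.99.

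Most known targets of the glucocorticoid receptor responded in both settings, but to different degrees gene by gene and for some in opposite directions. All 28 listed were tested, 24 at 1 CPM or more in each group. Dexamethasone raised 21 and lowered 4 without LPS, and raised 17 and lowered 9 with LPS, at list medians of 0.99 and 0.87 log2. The interaction was above 0 for 9 and below 0 for 15. With the interaction called, 4 went from raised to lowered and 1 from lowered to raised. Fkbp5, a co-chaperone that restrains the receptor, was at 33.2, 30.5, 31.6 and 24.4 CPM in the control libraries, 893, 883, 871 and 865 CPM with dexamethasone, 11.2, 11.5, 11.3 and 11.6 CPM with LPS and 687, 669, 695 and 673 CPM with both. The dexamethasone libraries were high in both settings, and the effect was larger with LPS (4.87 ± 0.062 and 5.90 ± 0.070 log2, 1.03 ± 0.097, adjusted p = 3.6e-13). Tsc22d3, the leucine zipper protein GILZ, had means of 39.04, 473, 20.9 and 139 CPM in control, dexamethasone, LPS and both, with a smaller effect with LPS (-0.87 ± 0.10). The transcription factor gene Klf9 also responded less with LPS (3.19 and 2.17, interaction -1.02 ± 0.095).

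The 2 extremes of the receptor targets were Ddit4 and Tns1. Ddit4, an inhibitor of the growth kinase mTORC1, was at 2.51, 2.95, 2.52 and 4.17 CPM in the control libraries, 286, 284, 324 and 314 CPM with dexamethasone, 40.7, 41.9, 61.4 and 43.1 CPM with LPS and 27.4, 25.5, 31.7 and 31.01 CPM with both. Dexamethasone raised it strongly from a very low level without LPS, while with LPS the dexamethasone libraries lay below the LPS libraries (6.64 ± 0.10 and -0.70 ± 0.082 log2, -7.34 ± 0.14, adjusted p = 5.1e-40). LPS library 3, the one that stood apart, had the highest Ddit4 of its group. Tns1, a focal adhesion protein, was at 166, 814, 2.18 and 588 CPM in control, dexamethasone, LPS and both. It was near 0 with LPS alone, and with both agents it was above control (2.30 and 8.09 log2, 5.79 ± 0.12). Cdkn1a, the cell cycle inhibitor p21, was not changed by dexamethasone alone (0.01 ± 0.054) and was lowered by it in LPS-treated cells from 1404 ± 122 to 209 ± 5.10 CPM (-2.76 ± 0.075). The receptor gene Nr3c1 itself was lowered by dexamethasone without LPS and raised with it, at 148, 110.3, 131 and 209 CPM in the same order (1.10 ± 0.064). A half-site of the receptor, AGAACA on either strand, was in the promoter windows of 15.2% of tested genes, 15.8% of those with an interaction above 0 and 13.5% of those below. The full site, which is AGAACA, any 3 bases and TGTTCT, was in the windows of 1 tested gene.

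Genes whose products restrain inflammation were more often below 0 than above. Of 28 anti-inflammatory feedback genes, all tested and 21 at 1 CPM or more, 15 were below 0 and 9 above (median -0.67). Dusp1, a phosphatase that inactivates MAP kinases, was at 15.2, 15.1, 14.01 and 14.95 CPM in the control libraries, 101, 106, 104 and 109.8 CPM with dexamethasone, 168, 144, 174 and 121 CPM with LPS and 347, 374, 339 and 336 CPM with both. The groups rose in that order with no overlap, and the fold effect of dexamethasone was smaller with LPS (2.83 and 1.20 log2, -1.63 ± 0.11, adjusted p = 3e-18). Atf3, a stress factor that also curbs Toll-like receptor genes, was lowered slightly without LPS and strongly with it, at 249, 203, 695 and 53.2 CPM in control, dexamethasone, LPS and both (-3.41 ± 0.082). AP-1 and ATF factors as a group (21 listed and tested, 15 at 1 CPM or more) counted 12 below 0 and 3 above, with a median of -0.86, and dexamethasone with LPS lowered 16. The early response gene Ier3 went from 754 ± 94.7 CPM with LPS to 113 ± 8.90 with both (-3.10 ± 0.12).

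Inflammatory cytokines were nearly absent without LPS, which limits the interaction. Of 18 listed genes 16 were tested, but only 4 reached 1 CPM in each group. Dexamethasone lowered 14 of the 16 in LPS-treated cells (median -2.40 log2), and the interaction was called above 0 for 2 and below 0 for 5. Il1b, the precursor of interleukin 1 beta, had means of 0.331, 0.0126, 8469 and 42.3 CPM in control, dexamethasone, LPS and both, and with so few counts without LPS its interaction of -3.38 ± 3.23 was not called by edgeR (adjusted p = 0.382). It was called by DESeq2 at -3.07 (adjusted p = 0.00766). The same limit held for Il6 (-0.61 ± 0.93, adjusted p = 0.598) and for Nos2, inducible nitric oxide synthase (-0.81 ± 1.40, adjusted p = 0.644), each at 0 in the dexamethasone libraries. Tnf, which was measurable in all groups, was at 16.8, 17.1, 17.6 and 18.8 CPM in the control libraries, 5.09, 4.28, 5.65 and 5.18 CPM with dexamethasone, 241, 265, 272 and 289.6 CPM with LPS and 148, 161, 128 and 129 CPM with both. Dexamethasone lowered it without overlap in both settings, by a smaller factor with LPS (-1.81 ± 0.12 and -0.92 ± 0.061 log2, 0.89 ± 0.14, adjusted p = 2.3e-07).

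Acod1 was lowered by dexamethasone in both settings and, like Tnf, by a smaller factor with LPS (ENSMUSG00000022126, chromosome 14, 103284413 to 103294009, plus strand in the deposited table). It was at 11.5, 9.62, 10.01 and 8.44 CPM in the control libraries, 1.01, 1.24, 0.601 and 0.625 CPM with dexamethasone, 6507, 6675, 6125 and 6624 CPM with LPS and 2748, 2783, 2708 and 2712 CPM with both. The groups did not overlap, and both groups with LPS lay far above those without. The dexamethasone effect was -3.48 ± 0.14 log2 without LPS, down to a mean under 1 CPM, and -1.24 ± 0.041 with LPS (2.24 ± 0.16, adjusted p = 2e-17).

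Most chemokines were lowered by dexamethasone in LPS-treated cells. Of 21 tested of 22 listed, 10 reached 1 CPM in each group, 9 were below 0 and 4 above, and dexamethasone with LPS lowered 18 and raised 3. Ccl2, the attractant of monocytes, was at 11.1, 10.3, 6.26 and 9.83 CPM in the control libraries, 3.07, 3.64, 3.05 and 2.14 CPM with dexamethasone, 1099, 967, 1392 and 938 CPM with LPS and 7.08, 7.06, 5.67 and 6.95 CPM with both. The libraries with both agents overlapped with the control libraries (-7.35 log2 with LPS, -1.65 without, -5.71 ± 0.36, adjusted p = 3.7e-19). Ccl3 and Ccl4, neighbouring chemokine genes, went the other way. Ccl3 had means of 50.4, 52.6, 198 and 577 CPM in control, dexamethasone, LPS and both (1.48 ± 0.080). Ccl4 had means of 53.7, 32.1, 49.6 and 91.1 CPM in the same order (1.62 ± 0.10). Dexamethasone lowered Ccl4 without LPS and raised it with LPS.

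Genes for acute-phase and antimicrobial secreted proteins were mostly raised by dexamethasone in LPS-treated cells. Of 28 listed 20 were tested, of which 2 reached 1 CPM in each group, and dexamethasone raised 18 in LPS-treated cells against 6 without LPS. The interaction was above 0 for 5 of the 20, below 0 for 4 and not called for 11. Lcn2, the iron-binding lipocalin, was at 0.0501, 0, 0 and 0.0534 CPM in the control libraries, 5.49, 4.88, 5.05 and 4.68 CPM with dexamethasone, 1040.2, 1127, 985 and 1104 CPM with LPS and 8599, 8595, 8829.6 and 8424 CPM with both. Its control group held 2 counts in all, so that no fold against control is given. Hp, haptoglobin, had means of 0.192, 55.5, 518 and 7643 CPM in control, dexamethasone, LPS and both. The serum amyloid gene Saa3 had means of 0.317, 1.83, 22378 and 43182 CPM. Its libraries with both agents all lay above those with LPS, a dexamethasone effect with LPS of 0.95 ± 0.055 log2. The log2 interactions of Saa3, Lcn2 and Hp were below 0 and rest on control levels near 0. Complement C3 was lowered by dexamethasone without LPS (-1.70 ± 0.070), while with LPS the libraries overlapped (0.07 ± 0.049, interaction 1.77 ± 0.085). Lyz2, which encodes lysozyme and is also the main macrophage marker, fell with LPS and not with both (1.35 ± 0.060), so the macrophage marker sum moves with it.

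Interferon-stimulated genes were lowered by dexamethasone in both settings without exception. Of 39 listed 38 were tested, 37 at 1 CPM or more in each group. Dexamethasone lowered all 38 without LPS (median -2.16 log2) and all 38 with LPS (median -1.67), and the interaction was above 0 for 26 and below 0 for 5. Oasl2, an oligoadenylate synthetase-like protein, had means of 394 ± 27.9 CPM in control, 87.5 ± 4.65 with dexamethasone alone, 703 ± 10.6 with LPS alone and 377 ± 7.50 with both (1.27 ± 0.052, adjusted p = 1.2e-26). Zbp1, a sensor of Z-form nucleic acids, behaved alike (-2.67 and -1.02 log2, 1.65 ± 0.080). Rsad2, the antiviral enzyme viperin, was among the 5 below 0, at 142, 13.7, 661 and 48.9 CPM in the same order (-0.38 ± 0.11, adjusted p = 0.00336). The interferon response motif GAAANNGAAA was in the windows of 17 of 28 of these genes with a window, 60.7% against 3.96% of tested genes.

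MHC class II genes, which present antigen, were listed with genes of co-stimulation. Of the 15 listed 14 were tested, 11 at 1 CPM or more, and the interaction was above 0 for 9 and below 0 for 2 (median 0.76 log2). Dexamethasone lowered 10 without LPS and 11 with LPS, at median effects of -1.03 and -1.64 log2, so the list medians and the median interaction differ in direction. H2-Ab1, a class II beta chain lowered less with LPS, was at 41.97, 37.5, 41.1 and 41.7 CPM in the control libraries, 2.12, 3.28, 2.30 and 1.83 CPM with dexamethasone, 388, 383, 464 and 386 CPM with LPS and 105, 106, 104 and 96.1 CPM with both. Every library with both agents lay above control and below LPS alone, and LPS library 3 was the highest of its group (2.09 ± 0.12, adjusted p = 2.3e-20). The invariant chain gene Cd74 had dexamethasone effects of -3.67 ± 0.068 log2 without LPS and -2.02 ± 0.059 with LPS (1.66 ± 0.090).

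Pattern receptors were evenly split, with 14 above 0 and 14 below among 34 tested of 35 listed (32 at 1 CPM or more). Tlr2, the receptor for bacterial lipoproteins, was lowered by dexamethasone in cells without LPS and raised in LPS-treated cells. Its means were 144, 92.2, 263 and 767 CPM in control, dexamethasone, LPS and both (2.19 ± 0.070). Efferocytosis, scavenger and complement genes counted 13 above 0 and 7 below among 23 tested of 25 listed (20 at 1 CPM or more). The haemoglobin scavenger Cd163 was raised in both settings, more with LPS (1.27 and 3.83 log2, 2.56 ± 0.12). Msr1, the class A scavenger receptor, was raised by each agent alone and lowered by dexamethasone in LPS-treated cells, at 95.9, 312, 1082 and 263 CPM in control, dexamethasone, LPS and both (-3.74 ± 0.063). Stab1, the scavenger receptor stabilin-1, reversed likewise, from 1.59 log2 without LPS to -0.43 with LPS (-2.02 ± 0.054). Selenop, the plasma selenium carrier, was raised in both settings and more with LPS, at 1617, 2979.8, 37.4 and 512 CPM in the same order (2.90 ± 0.064).

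Matrix proteases and remodelling genes were also mostly below 0. Of 20 tested of 23 listed, 10 at 1 CPM or more, 12 were below 0 and 4 above, with a median of -2.47. Mmp13, an interstitial collagenase, had means of 7.34 ± 0.289 CPM in control, 6.03 ± 0.539 with dexamethasone alone, 275 ± 36.5 with LPS alone and 1.03 ± 0.427 with both (-7.77 ± 0.25, adjusted p = 5.1e-31). Mmp8, a collagenase known from neutrophils, was at 14.1, 18.2, 13.9 and 14.7 CPM in the control libraries, 92.6, 96.8, 98.4 and 94.9 CPM with dexamethasone, 75.2, 58.7, 71.5 and 65.2 CPM with LPS and 15.01, 14.9, 18.6 and 15.8 CPM with both. Each agent alone raised it and the libraries given both overlapped with control (-4.73 ± 0.11). Mmp8 is also the largest term of the neutrophil marker sum, in which the granule genes Mpo, Elane, Ltf and Ngp were near 0. Among alternative-activation genes, 14 tested of 16 listed and 3 at 1 CPM or more, 8 were below 0 and 1 above. Arg1, arginase, was at 393 ± 106 CPM (29922 counts) with LPS and had 0 counts with both agents, at least 10500-fold lower when that group is set to 3 counts over its libraries.

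Genes were also sorted by their single effects, with calls that share the control libraries with the interaction, so the counts are a description. Both agents alone raised the gene and the pair raised it by more than the product of the single effects in 133 genes, with a median interaction of 0.45 log2. Both alone raised the gene and the pair fell short of the product in 956 genes (median -0.82), in 681 of which dexamethasone lowered the gene once LPS was present. Both alone lowered the gene and the pair lowered it by more in 177 genes (median -0.53). Both alone lowered the gene and the pair left it above the product of the single effects in 1527 genes (median 0.97). In 1119 of these dexamethasone raised the gene relative to LPS alone. With the pair some of them, such as Tmem176b and Idi1, lay above control. Neither agent alone had a called effect in 320 genes with an interaction above 0 and 360 below. The remaining called genes had a called effect of only dexamethasone or only LPS, or opposite single effects, and are not counted here.

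Among genes that both agents alone moved the same way, synergy by this definition was less frequent than its opposite and had the smaller medians. The calls share the control libraries with the interaction, so this order is a description. Chchd10, a protein of mitochondrial cristae, was at 7.02, 5.71, 6.11 and 6.19 CPM in the control libraries, 8.62, 7.79, 8.81 and 6.47 CPM with dexamethasone, 10.7, 10.3, 12.7 and 8.54 CPM with LPS and 67.4, 65.8, 64.98 and 62.8 CPM with both. Only the libraries with both agents stood apart, and control overlapped with dexamethasone (2.29 ± 0.15, adjusted p = 1.6e-18). Dennd4a, an exchange factor for Rab proteins, had means of 25.7, 41.9, 59.96 and 219.9 CPM in control, dexamethasone, LPS and both (1.17 ± 0.074). The fatty acid transporter Cd36 had the lowest interaction in the class of synergistic falls among protein-coding genes with at least 5 CPM in each group, at 300.1, 343, 314 and 371 CPM in the control libraries, 234, 216, 218 and 249 CPM with dexamethasone, 170.3, 152, 183 and 179 CPM with LPS and 15.2, 15.3, 15.6 and 15.9 CPM with both. The groups did not overlap, and the pair brought Cd36 far below either agent (-2.93 ± 0.10, adjusted p = 1.1e-29). Gramd4 had no called change with either agent alone and was higher with the pair, at 21.4, 23.5, 23.4 and 90.3 CPM (1.82 ± 0.092). Mfhas1, at 67.7, 68.7, 64.5 and 33.4 CPM, was likewise unmoved by call with either agent and lower with the pair (-0.97 ± 0.067).

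The scale decides the sign for a minority of genes. An interaction on the log2 scale asks whether fold effects multiply, and the excess in CPM (both minus LPS minus dexamethasone plus control) asks whether amounts add. Of the called genes 319 had an excess of the other sign, 215 of them beyond 2 SE. Of these 148 lay above 0 in log2 and below 0 in CPM, and 67 the reverse. Acod1 had an excess of -3736 CPM beside its positive interaction, since its fall with LPS, smaller as a fold, was larger in CPM. Fkbp5 (-179 CPM), Tns1 (-62.5) and Tnf (-113) shared this combination. Dusp1 (107 CPM) and Arl4c, a small GTPase in the class of synergistic falls (70.6 CPM, -2.71 ± 0.070 log2), had the reverse. The acute-phase genes Saa3 (20802 CPM), Lcn2 (7543) and Hp (7069.9) had excesses far above 0 beside log2 interactions below 0 that rest on control levels near the floor.

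Some dexamethasone effects were nearly the same in both settings. Of 515 genes raised 2-fold or more by dexamethasone alone, 33 had a 95% interval of the interaction wholly within 1.5-fold of equality. With LPS the effect was larger by call in 77 and smaller or reversed in 255, of which 95 reversed, and 183 were not called. Of 876 genes lowered 2-fold or more, 53 were within 1.5-fold and 96 had a larger effect. In 514 the effect was smaller or reversed, of which 282 reversed, and 266 were not called. Among genes with at least 5 CPM in each group, 29 of 101 raised and 41 of 208 lowered were within 1.5-fold. The genes were chosen by an effect that the interaction subtracts, which favours a smaller effect with LPS, so these counts are a description. Cd72, an inhibitory receptor, was at 482, 427, 455 and 450.1 CPM in the control libraries, 93.4, 80.1, 86.6 and 94.8 CPM with dexamethasone, 422, 396, 477 and 391 CPM with LPS and 80.5, 78.7, 81.02 and 74.9 CPM with both. Control overlapped with LPS and dexamethasone with both, and the effects were -2.35 ± 0.054 and -2.42 ± 0.055 log2 (-0.07 ± 0.075, adjusted p = 0.473). Cmpk2, a mitochondrial nucleotide kinase induced by interferon (-2.54 and -2.32), Ifi211 (-2.29 and -2.12), the poly(A) polymerase gene Tent5c (-2.08 and -1.66) and the glycosyltransferase gene B3galnt1 (1.94 and 1.61) had the next largest effects among such genes. An effect within 1.5-fold can still differ by call, as for Tent5c (0.42 ± 0.077, adjusted p = 5.4e-06) and B3galnt1 (-0.34 ± 0.11, adjusted p = 0.00572). The interaction of Ifi211 was not called (0.17 ± 0.090, adjusted p = 0.103). The interaction of Cmpk2 (0.22 ± 0.094, adjusted p = 0.0396) was called, but the call was lost under several alternatives, such as DESeq2 (adjusted p = 0.0814) and the fit without dexamethasone library 4 (adjusted p = 0.218).

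To follow LPS-responsive genes in libraries that the interaction does not use, they were chosen in the KO libraries. There all libraries with LPS came from lane 2 and nearly all without LPS from lane 3. A shift by lane can therefore hardly be told apart from the LPS effect used for the choice. Of 1103 genes that LPS raised 4-fold or more in KO, 521 (47.2%) had a wild-type interaction below 0 and 114 (10.3%) above, with a median of -1.25 log2. Their median LPS effect in wild type was 3.36 log2 without dexamethasone and 2.17 with it. Of 1155 genes that LPS lowered 4-fold or more in KO, 693 (60.0%) were above 0 and 77 (6.67%) below, with a median of 1.42, and their median LPS effect went from -3.04 to -1.70. Dexamethasone alone had a median effect of 0.00 log2 on the raised set and -0.49 on the lowered set, and with LPS -1.39 and 1.00. Among members at 1 CPM or more in each wild-type group, 285 of 393 raised genes were below 0 and 375 of 463 lowered genes above.

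**Figure D4:**
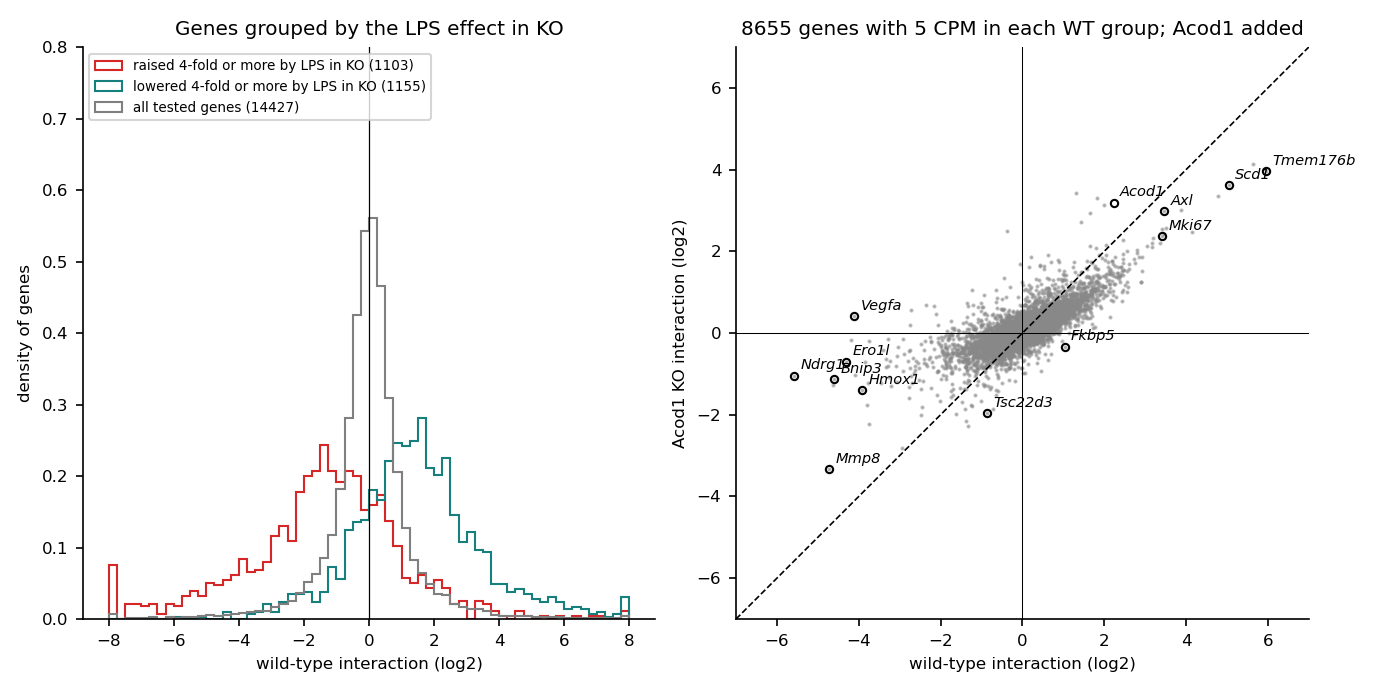
Left, density of the wild-type interaction (log2, values beyond 8 drawn in the end bins) for 1103 genes raised and 1155 genes lowered 4-fold or more by LPS in KO libraries, beside all 14427 tested genes; the raised set centres on -1.25 and the lowered set on 1.42. Right, wild-type interaction against the KO interaction (log2) for 8655 genes with at least 5 CPM in each wild-type group, with Acod1 added and a dashed line of equality; Ndrg1, Bnip3 and Vegfa lie far left of the line, at -1.04, -1.12 and 0.41 on the KO axis.

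The same interaction in Acod1 KO macrophages had a smaller median size. The wild-type and KO values share no library and correlated at a Pearson r of 0.633 across all tested genes (Spearman 0.64). The median absolute interaction was 0.501 log2 in wild type and 0.295 in KO, where 6035 genes were called. Of the wild-type calls, 7565 (86.8%) had the same sign in KO. The difference itself was called for 4721 genes (32.7% of those tested), of which 4184 also had a wild-type call and moved against its sign, that is toward or past 0, and 176 moved with it. These genes were chosen by a wild-type value that also enters the difference, so the split is a description. All KO libraries with LPS came from lane 2 and nearly all without LPS from lane 3. A shift by lane alone would cancel within the KO interaction but for KO dexamethasone 4 and KO control 1, without which 4391 genes were called.

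The HIF1 targets lost most of their interaction in KO, with a list median of -0.62 log2 against -3.48 in wild type, and the difference was called for 15 of 17. Ndrg1 had -1.04 in KO against -5.57 (difference 4.53 ± 0.12, adjusted p = 1.8e-32). Vegfa had 0.41 against -4.11 (4.52 ± 0.13, adjusted p = 4e-31). Ccl2 had 0.87 against -5.71 (6.58 ± 0.42, adjusted p = 4e-18). Cell cycle genes kept more, with medians of 2.41 in KO and 3.38 in wild type, but the difference was called for 27 of 34. Cholesterol synthesis genes likewise kept more (1.24 and 1.83), with the difference called for 20 of 24. Over all tested genes it was called for 32.7%. Interferon-stimulated genes had a larger interaction in KO, at a median of 1.59 against 0.51, with the difference called for 36 of 38. Fkbp5, above 0 in wild type, was at -0.33 in KO (-1.36 ± 0.14, adjusted p = 3.9e-11). Ddit4 kept nearly all of its interaction, at -6.69 against -7.34, though the difference of 0.65 was called. For Eno2 the difference of 0.05 ± 0.16 was not called (adjusted p = 0.869).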

How the data were processed

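Values were unnormalized counts of read pairs per gene in 1 table that the authors deposited. Its header records featureCounts 2.0.0 over exons, unstranded, on GENCODE vM32, per the file headers. The submitters' processing notes name STAR (its version is not given in the sources used here) with GRCm38 and mm10. The vM32 annotation was made for a later build, so gene positions printed are the table's and promoter sequences are RefSeq's. Without strand, reads of overlapping genes cannot be told apart. Of 56953 identifiers, 4924 had no matched symbol and held 0.846% of counts. All 32 libraries were fitted together in 8 groups with edgeR 4.0.16 (R 4.3.3) after filterByExpr and TMM, with 24 residual degrees of freedom and a biological coefficient of variation of 4.36%. The quasi-likelihood test was two-sided, with Benjamini-Hochberg adjustment over 14427 genes and calls at an adjusted p under 0.05. Levels are TMM-scaled CPM, mean ± SD over 4 libraries. Effects are log2 ± SE.

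Promoter windows were searched on both strands for letters only. Counting floors, of 3 counts over a group, cover counting error alone. The script was tested on simulated data. The members, lists and named genes were chosen with earlier results of these data known. The naming rule took 9 fixed genes, up to 4 members per list with the smallest adjusted p among those with 1 CPM in each wild-type group, the 10 highest and 10 lowest called protein-coding genes with 5 CPM in each, the 4 largest per class and reversal, and the 5 largest equal effects. Further list members are named beside their counts, and some genes the rule would allow are left out. Alternatives were RLE factors, no normalization, other filters, DESeq2 1.42.0, stricter thresholds, wild-type libraries alone, a replicate block, each library left out, and the linear scale. A fit without KO dexamethasone 4 and KO control 1 was added after the data had been seen.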

Additional observations from a re-analysis of the deposited data

Results flagged for a closer look

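Sets of 4 libraries were examined for the named genes, and for total counts, the share of the highest-count genes and the mitochondrial share. In 14 of 320 such sets, 1 library lay far from the other 3. The gap took up most of the range of its group (above the 95% critical value of Dixon's test). Chance alone gives such a library in about 1 set in 20. Of the 14, 3 were in LPS library 3, which also differed from its group over all genes. These were Ddit4 at 61.4 CPM, H2-Ab1 at 464 CPM and Saa3 at 27118 CPM, each above its group. The other high libraries were Il1b at 0.0504 CPM in dexamethasone library 1, Pdgfb at 35.7 CPM in dexamethasone library 2 and Cdkn1a at 146 CPM in dexamethasone library 4. Cd74 was high at 66.7 CPM in library 1 with both agents, and Arl4c at 429.5 CPM in control library 4. Low libraries were Egln1 at 47.7 CPM and Ccl2 at 5.67 CPM in library 3 with both agents, and Vegfa at 23.6 CPM in dexamethasone library 4. Mdh1 was low at 139 CPM in control library 3, Zbp1 at 281 CPM in LPS library 2 and Spn at 102 CPM in dexamethasone library 3.

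The interaction differed between genotypes for 4721 genes (32.7% of those tested), and for 68 of the 77 genes named with values. In 54 of these 68 the difference went against the wild-type sign. Over all tested genes with both calls, 4184 went against the wild-type sign and 176 with it. Many named genes were chosen by their wild-type interaction, which also enters the difference, so these counts are a description. The following values are KO minus wild type in log2. Among HIF1 targets and genes near them in rank, the difference was 4.53 for Ndrg1, 4.52 for Vegfa, 4.02 for Pdgfb, 3.61 for Ero1l and 3.47 for Bnip3. It was 3.38 for P4ha2, 3.14 for Fam162a, 3.05 for Selenbp1, 2.56 for Egln1, 2.70 for Slc2a1 and 1.53 for Pdk1. Stress and protective genes gave 2.52 for Hmox1, 2.18 for Prdx1, 2.99 for Atf3, 2.29 for Ier3 and 2.33 for Cdkn1a. Secreted and surface proteins below 0 in wild type gave 7.27 for Mmp13, 1.40 for Mmp8, 6.58 for Ccl2, 1.51 for Msr1, 0.37 for Stab1 and 2.78 for Cd36. Arl4c gave 3.29 and Mfhas1 0.73. Arg1 gave 15.26, a fitted value that depends on a group with 0 counts.

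Cell cycle genes moved down, by -1.03 for Mki67, -1.59 for Top2a and -1.72 for Ccnb1, while Pcna gave 0.35. Lipid genes gave -1.05 for Idi1, -0.86 for Fdps, -1.42 for Scd1 and -0.93 for Fads2. Other genes above 0 in wild type gave -1.99 for Tmem176b, -1.44 for Tmem176a, -1.68 for Spn, -0.87 for Phgdh and -0.49 for Axl. It was -0.94 for Idh3a, -0.88 for Mdh1, -1.66 for Selenop, -1.56 for Cd163 and -1.06 for Lyz2. The values were -0.64 for Dennd4a, -0.91 for Chchd10, -0.73 for Gramd4, -0.76 for Tlr2, -0.60 for Ccl3 and -0.39 for Ccl4.

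Glucocorticoid receptor targets gave -1.36 for Fkbp5, -1.09 for Tsc22d3, -0.65 for Klf9, -1.88 for Tns1 and 0.65 for Ddit4, beside -0.34 for the receptor gene Nr3c1. Hp gave -1.56 and B3galnt1 -0.80. Interferon-stimulated and antigen presentation genes moved up, by 2.89 for Rsad2, 1.64 for Cmpk2, 1.45 for Ifi211, 0.46 for Oasl2 and 0.49 for Zbp1. H2-Ab1 gave 1.18 and Cd74 1.29. Acod1 gave 0.96, Tnf 0.86, Cd72 1.74 and Tent5c 1.26.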

How the results depend on the processing

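The count of 8713 called genes ran from 7500 to 8852 with RLE factors, no normalization, no filter, a minimum of 1 CPM, wild-type libraries alone or DESeq2, and was 7543 at an adjusted p under 0.01. A test against a 1.5-fold difference (glmTreat) called 3606 genes, 1965 above 0 and 1641 below. With a minimum of 1 CPM in each wild-type group, which tests fewer genes, those called at 2-fold or more went from 3025 to 1767. With each wild-type library left out in turn, 8534 to 8708 genes were called, 4522 to 4645 above 0 and 3995 to 4090 below, 2981 to 3085 at 2-fold or more, 2313 to 2516 reversed and 4513 to 4789 different between genotypes. Same-numbered libraries did not deviate together (24 correlations from -0.0287 to 0.0596, with 6 of 16 libraries closest to their own number), and with a replicate block 8686 genes were called. On the linear scale 16 named genes had the other sign: in CPM, Acod1 -3736, Arl4c 70.6, Cd163 -4.12, Cmpk2 -97.7, Dusp1 107, Fkbp5 -179, H2-Ab1 -264, Hp 7069.9, Lcn2 7543, Oasl2 -20.6, Saa3 20802, Selenop -888, Tent5c -43.2, Tnf -113, Tns1 -62.5 and Zbp1 -105. Elsewhere Cmpk2 and Pcna lost their call in some settings, B3galnt1, Rsad2 and Tent5c lost it in the test against 1.5-fold, and Ifi211, and Il1b with DESeq2, gained one, with no change of sign, and depth limits genes near 0 without LPS, such as Il1b, Il6 and Nos2.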

Other observations

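The remaining gene lists gave the following counts, beside shares over all tested genes of 32% above 0 and 28.4% below. Clock genes, which keep daily rhythms, counted 9 below 0 and 2 above among 17 tested of 20 listed, with a median interaction of -0.39 log2. Dual-specificity MAP kinase phosphatases counted 7 below and 2 above among 12 (median -0.76), and dexamethasone lowered 8 of them in LPS-treated cells against 4 without LPS. LXR targets, genes of cholesterol export and lipid synthesis that include Scd1, counted 7 above and 5 below among 13 tested of 15 listed, and their median dexamethasone effect was -0.68 log2 without LPS and 0.13 with it. The integrated stress response, with serine synthesis, counted 9 above and 8 below among 19 tested of 20 listed. Partners of the glucocorticoid receptor (the receptor, chaperones and cofactors) counted 9 above and 6 below among 19 tested of 20 listed, with median dexamethasone effects of -0.01 and 0.01.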
